A study of Mus musculus with 93 samples.

Results

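The genes described are 39 of 40 listed cell cycle and DNA replication genes, read in the white blood cells of mice on 93 oligonucleotide arrays. The list was drawn up by gene symbol and function, and among the probe sets annotated to a gene's symbol alone, the brightest on average across the 93 arrays was used. Of the 39 genes, 12 act in DNA replication, 4 in the passage from G1 to S phase and 23 in mitosis, out of 18193 genes that could be read in the same way. Ccnb1, the fortieth, had no probe set with a single symbol and is not analysed here.

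Blood was taken from the cheek of FVB/NJ females, red cells were lysed, and RNA from the total white cells was amplified and hybridised. The 28 control arrays (14 labelled training, 14 labelled validation) came from wild type, tumor-free females of matched age and parity. The tumor arrays came from tumor-bearing MMTV/c-MYC females, whose transgene is driven by the hormone-responsive long terminal repeat of mouse mammary tumor virus, so that expression rises with pregnancy and lactation. Some of these transgenics carried c-MYC and some a more stable point mutant, which the labels do not separate, and all the females, controls included, were bred continuously. No age is given per array.

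The tumor arrays were read as 52 late-numbered arrays (training 6 to 32, validation 9 to 33) and 13 early-numbered arrays (training 1 to 5, validation 1 to 8). What the number in a label stands for is not given, and the division was first seen in the arrays' own control probe sets. The dap spike-in probe set averaged 2.22 ± 0.32 (SD, n = 28) on the control arrays, 8.56 ± 0.79 (SD, n = 52) on the late-numbered arrays and 2.70 ± 0.51 (SD, n = 13) on the early-numbered arrays. The 5′ minus 3′ difference of the actin control, which falls as RNA is shortened, averaged -0.64, -0.54 and -1.42 in the same order. The effect of the set and any effect of how the arrays were processed cannot be told apart here. One late-numbered array, validation tumor array 19, stood apart from the rest, and results on late-numbered arrays are also given without it, for single genes in one paragraph. In bulk blood, fewer cells of a type and less RNA per cell cannot be told apart.

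A dividing cell first licenses its replication origins by loading the ring-shaped Mcm2 to Mcm7 helicase with the help of Cdc6 and Cdt1. Pcna then clamps the polymerases to DNA while ribonucleotide reductase (Rrm1, Rrm2) and thymidylate synthase (Tyms) supply the nucleotides. Mitosis follows under cyclin-dependent kinase 1, the Aurora and Polo kinases, the spindle checkpoint and the anaphase-promoting complex. Mature neutrophils and most resting lymphocytes in blood no longer divide, whereas precursors and activated lymphocytes do. Genes of the replication class are commonly driven by E2F factors, and many mitotic genes are driven through CCAAT boxes and a CHR element.

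Promoter sequences are shown because the letters read by the factors of each class can be searched for in them. The 150 bases just before the transcription start are printed below for 3 replication genes and 5 mitotic genes. They were taken from the RefSeq promoter table of build GRCm38.p6 and are written 5′ to 3′ on the strand of the gene. Only windows that lie wholly outside the annotated gene are shown. Capitals mark CCAAT (or ATTGG, its reverse complement), TTTGAA (or TTCAAA), the letters of the usual CHR element, and TTTCGCGC, TTTGGCGC, TTTCCCGC or TTTGCCGC (or their reverse complements GCGCGAAA, GCGCCAAA, GCGGGAAA and GCGGCAAA), the letters of common E2F sites. The Mcm3 and Mcm6 windows lie at chr1:20820313-20820462 and chr1:128359706-128359855 on the minus strand, and the Rrm2 window lies at chr12:24708104-24708253 on the plus strand. The Cdk1, Ccnb2 and Cdc20 windows lie at chr10:69352913-69353062, chr9:70421555-70421704 and chr4:118437344-118437493 on the minus strand. The Ube2c window lies at chr2:164769779-164769928 on the plus strand and the Bub1 window at chr2:127831860-127832009 on the minus strand.
Mcm3: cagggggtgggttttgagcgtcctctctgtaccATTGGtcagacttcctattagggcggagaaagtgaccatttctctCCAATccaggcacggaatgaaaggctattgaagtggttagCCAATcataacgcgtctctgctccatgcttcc
Mcm6: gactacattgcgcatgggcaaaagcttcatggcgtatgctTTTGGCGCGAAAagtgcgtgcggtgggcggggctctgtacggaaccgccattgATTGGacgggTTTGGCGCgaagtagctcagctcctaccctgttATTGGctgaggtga
Rrm2: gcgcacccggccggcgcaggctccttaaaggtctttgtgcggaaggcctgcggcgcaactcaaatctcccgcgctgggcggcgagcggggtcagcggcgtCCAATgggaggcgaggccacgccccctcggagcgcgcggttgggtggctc
Cdk1: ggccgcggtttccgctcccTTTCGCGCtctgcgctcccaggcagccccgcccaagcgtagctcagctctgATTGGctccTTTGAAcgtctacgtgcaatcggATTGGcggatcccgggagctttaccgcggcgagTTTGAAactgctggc
Ccnb2: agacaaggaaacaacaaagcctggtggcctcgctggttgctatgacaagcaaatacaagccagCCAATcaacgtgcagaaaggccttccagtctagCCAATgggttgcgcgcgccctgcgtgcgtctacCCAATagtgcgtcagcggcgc
Cdc20: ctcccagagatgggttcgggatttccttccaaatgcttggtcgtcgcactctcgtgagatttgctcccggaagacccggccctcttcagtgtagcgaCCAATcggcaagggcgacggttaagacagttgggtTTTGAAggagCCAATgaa
Ube2c: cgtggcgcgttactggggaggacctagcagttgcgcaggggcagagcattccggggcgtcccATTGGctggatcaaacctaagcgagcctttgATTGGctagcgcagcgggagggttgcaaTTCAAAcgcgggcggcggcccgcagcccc
Bub1: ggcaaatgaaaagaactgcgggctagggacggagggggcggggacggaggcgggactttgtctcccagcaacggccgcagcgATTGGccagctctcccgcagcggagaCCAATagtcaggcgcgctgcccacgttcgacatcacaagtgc

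Counting back from the start, the Mcm6 window held TTTGGCGC at -110 and -47, the former overlapped by GCGCGAAA at -106, and ATTGG at -57 and -14. The Cdk1 window held ATTGG at -80 and -48, TTTGAA at -71 and -15, and the E2F word TTTCGCGC at -131. Over windows of 300 bases (250 before the start and 50 after), 33 of the 39 genes had an entry, with 36 promoters in all; Tpx2, Aurkb, Ccna2, Kif20a, Mcm4 and Ccne2 had none. CCAAT was found in 85.0% of the 20 mitotic promoters and 75.0% of the 12 replication promoters, against 37.4% of all 32851 promoters. TTTGAA was found in 80.0% of the mitotic and 8.33% of the replication promoters, against 17.9% of all. An E2F word was found in 50.0% of the replication and 5.0% of the mitotic promoters, against 2.26% of all. These matches describe letters in a window and were not tested as binding sites.

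Levels are log2 values, so that 1 unit is a 2-fold difference, and a gene is called where limma's moderated test gave an adjusted p under 0.05 after Benjamini-Hochberg adjustment over all 45037 probe sets. Differences are tumor minus control on the log2 scale with their standard errors (SE). Late-numbered and early-numbered arrays were set against the same 28 control arrays, so these comparisons are not independent of each other.

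Against the controls, the late-numbered arrays had higher levels of several mitotic genes and lower levels of a few replication genes. Of the 39 genes, 11 were higher and 5 lower, which is 28.2% and 12.8%. The background was high: 25.6% of all 18193 genes were called higher and 20.5% lower in that comparison, so the total over the 39 genes lay near the background. Of the 23 mitotic genes 9 rose and 2 fell (median difference 0.19), and of the 12 replication genes 1 rose and 3 fell (median -0.06), beside a median of 0.04 over all genes. The share of replication genes that fell also lay near the background, while 39.1% of mitotic genes rose.

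Against the controls, the early-numbered arrays had higher levels of 14 of the 39 genes and lower levels of 8. These are 35.9% and 20.5%, where 34.3% of all genes were called higher and 29% lower, so the total again lay near the background. Of the 23 mitotic genes 10 rose and 2 fell (median 0.39), and of the 12 replication genes 2 rose and 6 fell (median -0.33). Both E2f1 and E2f2 rose among the 4 genes of the G1 to S class (median 0.44), and the median over all genes was 0.07.

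**Figure D1:**
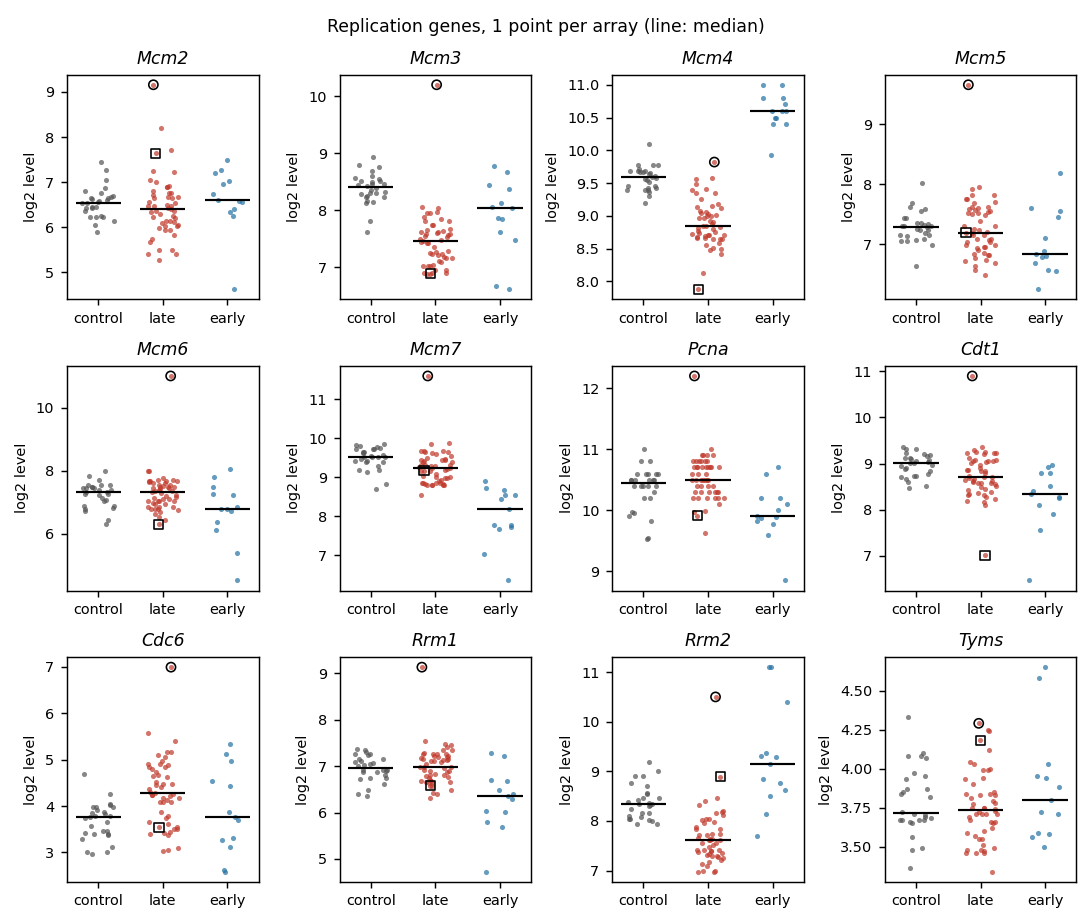
Log2 level of replication genes on each array, in control, late-numbered and early-numbered tumor arrays (each point 1 array, black line the median). The circle is validation tumor array 19 and the square validation tumor array 9. Mcm4 lies below most controls on late-numbered arrays and above them on early-numbered arrays.

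Mcm4, a helicase subunit (gene at chr16:15623897-15637400, GRCm38.p6), divided the sets most sharply. It lay between 9.20 and 10.1 with a median of 9.59 on the control arrays. On the late-numbered arrays it lay between 7.88 and 9.82 with a median of 8.85. On the early-numbered arrays it lay between 9.93 and 11 with a median of 10.6. Of the 52 late-numbered arrays 43 lay below every control and none lay above, and 12 of the 13 early-numbered arrays lay above every control. The differences were -0.68 (SE 0.07, limma adjusted p = 1.17e-13) for late and 1.04 (SE 0.10, limma adjusted p = 1.57e-14) for early numbers, and the direct difference of late minus early was -1.72 (limma adjusted p = 1.21e-29). Both cohorts showed it, with late differences of -0.63 in training and -0.73 in validation and early differences of 1.08 and 1.00. The probe set used for Mcm4, like that for Rrm2, carries the suffix x, which marks probes that can match other transcripts. The second Mcm4 probe set gave -0.23, also called, for late numbers and 0.26 (limma adjusted p = 0.052) for early numbers.

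Mcm3, a further helicase subunit, ran from 7.62 to 8.93 with a median of 8.42 on the control arrays. It ran from 6.89 to 10.2 with a median of 7.46 on the late-numbered arrays, and from 6.62 to 8.77 with a median of 8.04 on the early-numbered arrays. It was lower in both sets, in 35 of 52 late-numbered arrays below every control, and the 1 late-numbered array above every control was validation tumor array 19. The late difference was -0.91 (SE 0.11, limma adjusted p = 2.79e-11), or 0.532 times the control level, and the early difference was -0.49 (limma adjusted p = 0.00619).

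Mcm7, also of the helicase (gene at chr5:138164583-138172111), fell on the early-numbered arrays. Its levels ran from 8.69 to 9.84 with a median of 9.53 in controls, from 8.54 to 11.6 with a median of 9.24 on late-numbered arrays, and from 6.35 to 8.91 with a median of 8.17 on early-numbered arrays. Of the 13 early-numbered arrays 11 lay below every control, whereas the late-numbered arrays overlapped the controls. The early difference was -1.47 (SE 0.16, limma adjusted p = 1.34e-13), and all 4 Mcm7 probe sets gave lower early levels, between -0.97 and -1.47. The late difference of -0.23 missed the threshold (limma adjusted p = 0.0802) and reached it without validation tumor array 19, at -0.28 (limma adjusted p = 0.0103). Cdt1, the Mcm loader, behaved likewise: late -0.21 with array 19 and -0.25 (limma adjusted p = 0.0272) without it, and early -0.71 (limma adjusted p = 7.93e-05).

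Rrm2, the regulated subunit of ribonucleotide reductase, moved oppositely in the 2 tumor sets. It ran from 7.93 to 9.18 with a median of 8.35 in controls, from 6.98 to 10.5 with a median of 7.61 on late-numbered arrays, and from 7.69 to 11.1 with a median of 9.15 on early-numbered arrays. Of the late-numbered arrays 38 lay below every control, and of the early-numbered arrays 6 lay above. The late difference was -0.70 (limma adjusted p = 1.65e-05) and the early difference 0.88 (limma adjusted p = 0.000118). The early difference rested on the training arrays: it was 1.78 in training and 0.30 in validation, and the cohorts differed by -1.48 (SE 0.37, limma adjusted p = 0.0417 for the difference). Rrm1, the other subunit of the enzyme, was 0.06 above control on late-numbered arrays and fell by 0.67 on early-numbered arrays (limma adjusted p = 4.6e-05).

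The other replication genes moved less. Cdc6, a loader of the helicase, was the only one higher on late-numbered arrays (0.64, SE 0.16, limma adjusted p = 0.000436, 15 arrays above every control). Pcna (-0.39) and Mcm6 (-0.50) fell on early-numbered arrays while staying at 0.17 and 0.07 on late-numbered arrays, where neither was called. Mcm2, Mcm5 and Tyms were called in neither comparison by these probe sets. For Mcm2 and Mcm5 a second probe set was called, higher on late-numbered arrays (0.61 and 0.34) and lower on early-numbered arrays (-0.82 and -0.97), so the call for these genes changed with the probe set. The remaining Mcm5 probe set was called higher on early-numbered arrays (0.27). A further probe set of Cdt1 and one of Mcm6 were called higher on early-numbered arrays (1.16 and 0.61), opposite to the probe sets used above. Over all 29 genes with more than 1 probe set there were 53 further probe sets, of which 22 belonged to genes called on late-numbered arrays, and 5 of these were called in the same direction and none in the opposite. For early numbers 16 of 31 were called in the same direction and 2 in the opposite. For late minus early, described later, 14 of 33 were called in the same direction and 10 in the opposite.

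**Figure D2:**
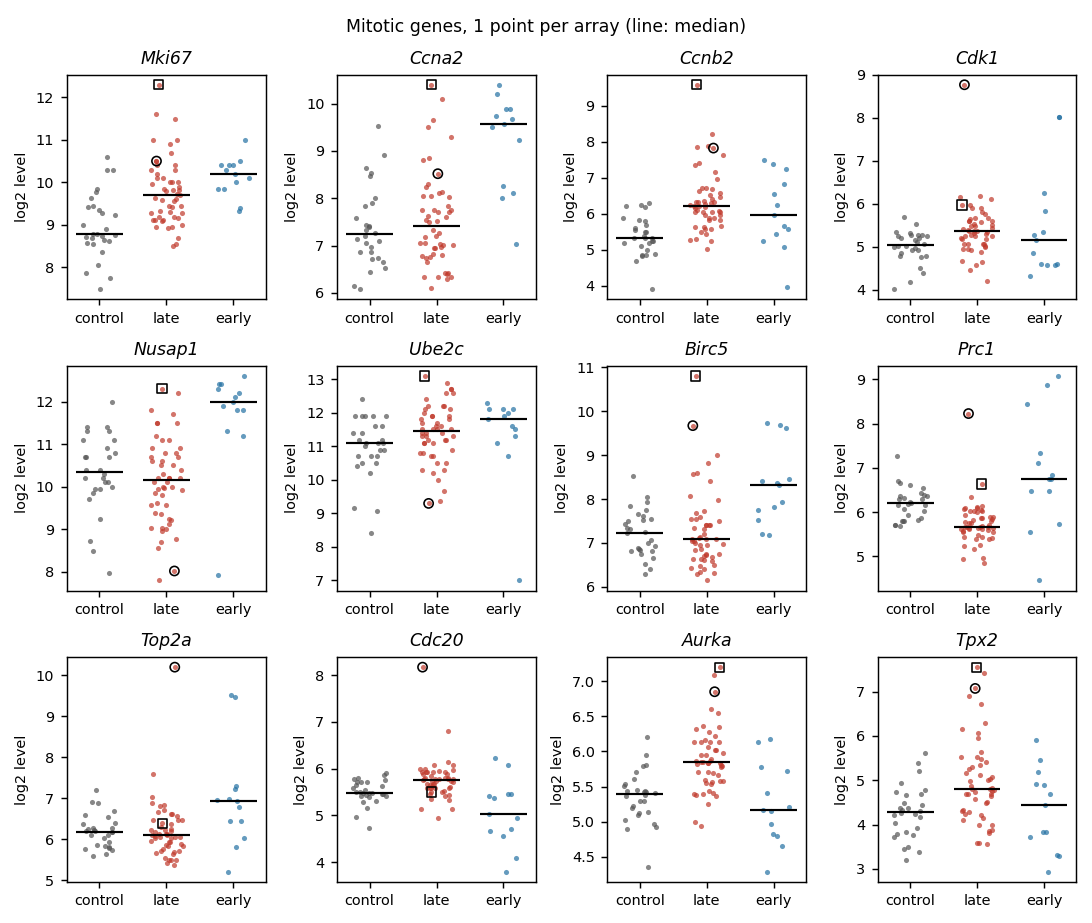
Log2 level of mitotic genes on each array, in control, late-numbered and early-numbered tumor arrays (each point 1 array, black line the median). The circle is validation tumor array 19 and the square validation tumor array 9. Ccnb2 and Mki67 reach above the control range in both tumor sets.

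Among the mitotic genes, Ccnb2, a mitotic cyclin, had the largest rise on late-numbered arrays. It ran from 3.90 to 6.28 with a median of 5.31 in controls, from 5.02 to 9.58 with a median of 6.21 on late-numbered arrays, and from 3.96 to 7.49 with a median of 5.96 on early-numbered arrays. Of the late-numbered arrays 23 lay above every control and 48 above the control mean. The late difference was 0.99 (SE 0.18, limma adjusted p = 3.56e-06), a ratio of 1.98, in training (0.79) and in validation (1.2). The early difference of 0.68 (limma adjusted p = 0.0218) was found in training (1.49) and was not called in validation (0.18).

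Mki67, the standard proliferation marker, rose in both sets. It ran from 7.48 to 10.6 with a median of 8.78 in controls, from 8.49 to 12.3 with a median of 9.71 on late-numbered arrays, and from 9.32 to 11 with a median of 10.2 on early-numbered arrays. Of the late-numbered arrays 46 of 52 and of the early-numbered arrays 13 of 13 lay above the control mean, although the sets overlapped widely. The differences were 0.83 (SE 0.17, limma adjusted p = 2.67e-05) and 1.14 (SE 0.25, limma adjusted p = 4.04e-05). By cohort they were 0.76 and 0.90 for late numbers and 1.51 and 0.92 for early numbers.

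Among the other mitotic genes on late-numbered arrays, Aurka, a spindle pole kinase, rose by 0.54 (49 of 52 arrays above the control mean, limma adjusted p = 1.07e-05), and Tpx2, which activates it, rose by 0.72 (limma adjusted p = 0.00167). The checkpoint kinases Bub1 (0.44) and Bub1b (0.38), the mitotic kinase Cdk1 (0.41), the anaphase activator Cdc20 (0.26) and the kinesin Kif2c (0.23) were called higher with smaller differences. Bub1, Bub1b, Kif2c and Tpx2 were dim, with means over all arrays of 3.30, 4.54, 3.64 and 4.69 where the median of all probe sets was 4.79. With probe sets at or below that median left out, 5 of 16 mitotic genes were called higher. The share of all the brighter genes called in that fit was not counted. Cdc6, at 4.06, was also left out, and no replication gene of 10 was then called higher by limma, also at an unadjusted p under 0.05, with 1 call left in the G1 to S class. In the G1 to S class Ccne2, which drives entry into S phase, was called higher at 0.27 (limma adjusted p = 0.0391), and without validation tumor array 19 it was 0.25 (limma adjusted p = 0.0533). The genes that fell were Prc1, a midzone microtubule protein (-0.45, 27 of 52 arrays below every control), and Cenpa, the centromeric histone (-0.21, 24 of 52 below).

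The early-numbered arrays shared Mki67, Ccnb2, Bub1 (0.86) and Bub1b (0.63) with the late-numbered ones and added others. Ccna2, a cyclin of S phase and mitosis, ran from 6.08 to 9.52 with a median of 7.24 in controls, from 6.11 to 10.4 with a median of 7.41 on late-numbered arrays and from 7.04 to 10.4 with a median of 9.58 on early-numbered arrays. Its early difference was 1.81 (SE 0.32, limma adjusted p = 7.5e-07), a ratio of 3.50, and 7 of the 13 arrays lay above every control. Nusap1, a spindle protein, rose by 1.35, Birc5, the chromosomal passenger survivin, by 1.08, Top2a, a chromosome-untangling topoisomerase, by 0.82, Prc1 by 0.74 and the kinetochore motor Cenpe by 0.48. Aurkb (-0.60) and Cdc20 (-0.45) were called lower, and of the transcription factors of the G1 to S class E2f1 (0.86) and E2f2 (0.69) were called higher. Cdca3, Cdca8, Kif11, Kif20a, Plk1, Ube2c and Ccne1 were called in neither comparison, with differences between -0.19 and 0.44.

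The rises in mitotic genes on early-numbered arrays were called mostly in the training cohort. In training, 14 of 23 mitotic genes were called higher and none lower by limma, also at an unadjusted p under 0.05, whereas in validation 2 were higher and 2 lower. Top2a was 1.79 in training and 0.22 in validation, and Prc1 was 1.77 and 0.09. Other rises shrank less. Ccna2 averaged 9.98 on early-numbered and 7.26 on control arrays in training, and 8.70 and 7.51 in validation. For Nusap1 the means were 12.2 and 10.1 in training, and 11.4 and 10.5 in validation. Without training tumor arrays 2 and 3, a choice made after seeing the data, the count of mitotic genes called higher fell from 10 to 4. The share of all genes called was not counted within a cohort or without these 2 arrays. Whether all genes moved likewise is therefore not known. A difference between cohorts was called by limma for 145 of 45037 probe sets among early-numbered arrays, with 5618 at an unadjusted p under 0.05, and for 3 of the 39 genes, with 16 unadjusted. These were Prc1 (-1.68, SE 0.37, limma adjusted p = 0.0152), Rrm2, given above, and Aurkb (-1.49, SE 0.36, limma adjusted p = 0.0367), each with validation below training. For late numbers no probe set showed a difference between cohorts after adjustment by limma, with 990 of 45037 and 3 of the 39 genes at an unadjusted p under 0.05.

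**Figure D3:**
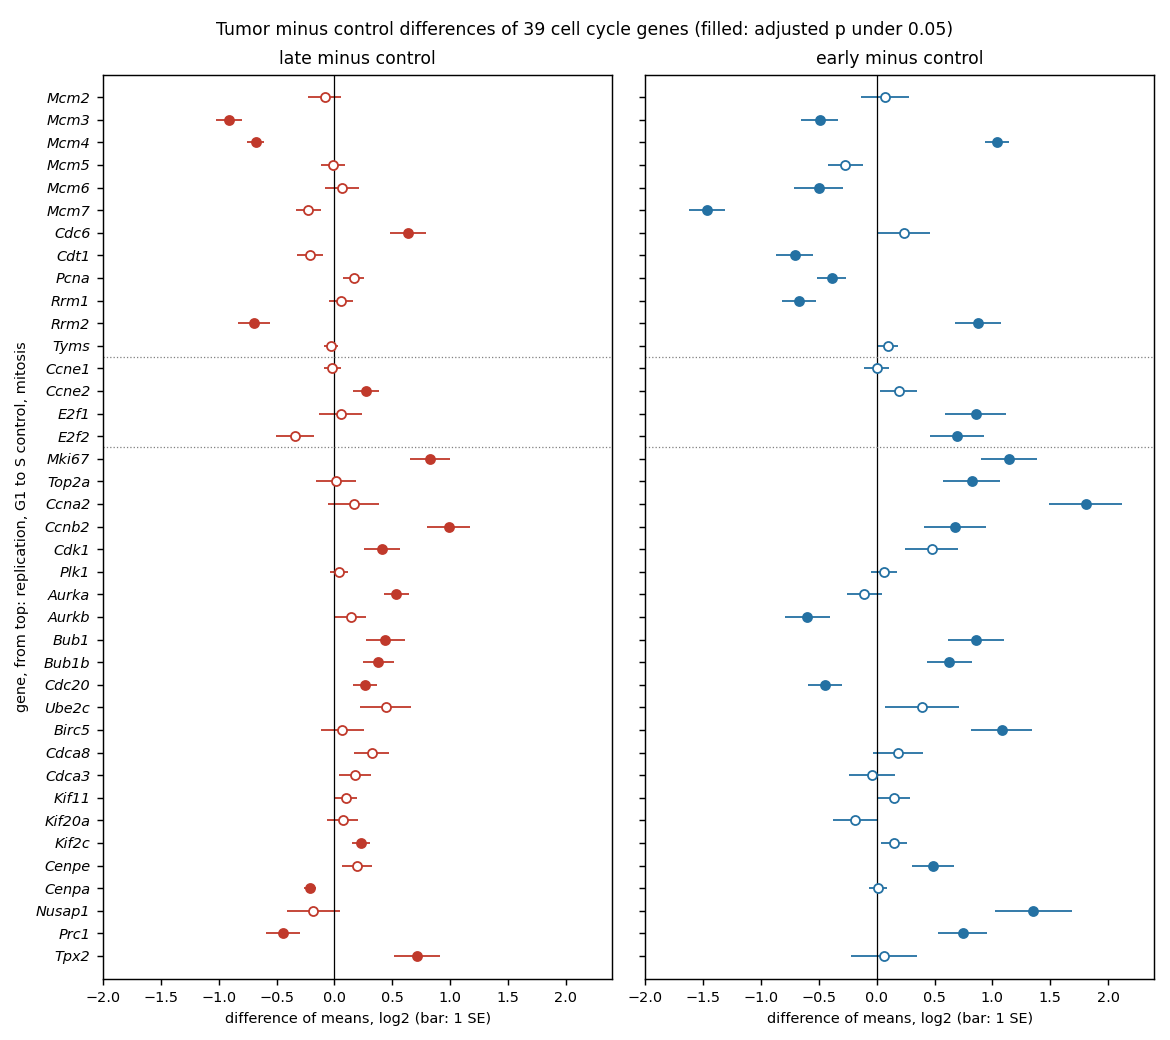
Log2 difference from control of each of the 39 genes, for late-numbered and early-numbered tumor arrays (filled points adjusted p under 0.05, bars 1 SE, dotted lines between classes). Mcm4 and Rrm2 lie on opposite sides of 0 in the 2 sets, and the largest rise is Ccna2 on early-numbered arrays at 1.81.

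Set directly against each other, the late-numbered arrays were higher than the early-numbered for 9 of the 39 genes and lower for 11. These are 23.1% and 28.2%, where 31.5% of all genes were called higher and 38.3% lower. Replication genes were higher for 5 and lower for 3 of 12, with a median of 0.33, and mitotic genes higher for 4 and lower for 6 of 23, with a median of -0.05. Among the higher were Mcm7 (1.24), Aurkb (0.74), Rrm1 (0.73), Cdc20 (0.71) and Pcna (0.56), and among the lower Mcm4 (-1.72), Ccna2 (-1.64), Rrm2 (-1.57), Nusap1 (-1.54) and Prc1 (-1.19). Cdc20, Mcm4, Prc1 and Rrm2 were called in opposite directions against control in the 2 tumor sets. The class counts turned by cohort: in training 3 replication genes were higher and 5 lower (median -0.24) and 1 mitotic gene higher and 13 lower (median -0.59), whereas in validation 6 replication genes were higher and 2 lower (median 0.50) and 6 mitotic genes higher and 2 lower (median 0.11). The share of all genes called within a cohort was not counted, so whether this turn is particular to these classes is not known.

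Validation tumor array 19 held by far the highest levels of replication genes among the late-numbered arrays. It was the highest late-numbered array for 26 of the 39 genes, among them all 12 replication genes and 12 of 23 mitotic genes. Its level exceeded the median of the other late-numbered arrays by a median of 2.41 over all 12 replication genes and of 2.14 over all 23 mitotic genes, including those for which it was not the highest. Mcm6 reached 11 where the others stayed at or below 8, Top2a 10.2 against at most 7.60 and Cdk1 8.77 against at most 6.17. E2f2 (9.26), Ube2c (9.29) and Cenpa (7.17) had their lowest late-numbered level on this array. Its mean over the T cell marker genes was the highest of the late-numbered arrays (11.9), while its B cell (5.78), monocyte (7.43), platelet (8.31), erythroid (6.67) and plasma cell (7.18) means were the lowest. Without it, 5 rather than 3 of the 12 replication genes were called lower on late-numbered arrays, and the mitotic count stayed at 9 higher and 2 lower, where 26.6% of all genes were called higher and 21.5% lower.

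Without validation tumor array 19 the late differences from control were -0.97 for Mcm3, -0.70 for Mcm4, -0.75 for Rrm2 and 0.58 for Cdc6. They were 0.96 for Ccnb2, 0.81 for Mki67, 0.67 for Tpx2, 0.52 for Aurka, 0.37 for Bub1, 0.34 for Cdk1, 0.31 for Bub1b, 0.22 for Cdc20 and 0.21 for Kif2c, with -0.50 for Prc1 and -0.20 for Cenpa. All of these were called by limma, so that with Mcm7, Cdt1 and Ccne2, given above, 3 calls among the 39 genes changed. Late minus early gave 9 higher and 14 lower in place of 9 and 11, the added genes being Bub1 (-0.50), Bub1b (-0.33) and Cenpe (-0.34), with Mcm4 at -1.74, Rrm2 at -1.64, Prc1 at -1.25, Cdc20 at 0.66 and Mcm7 at 1.18.

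**Figure D4:**
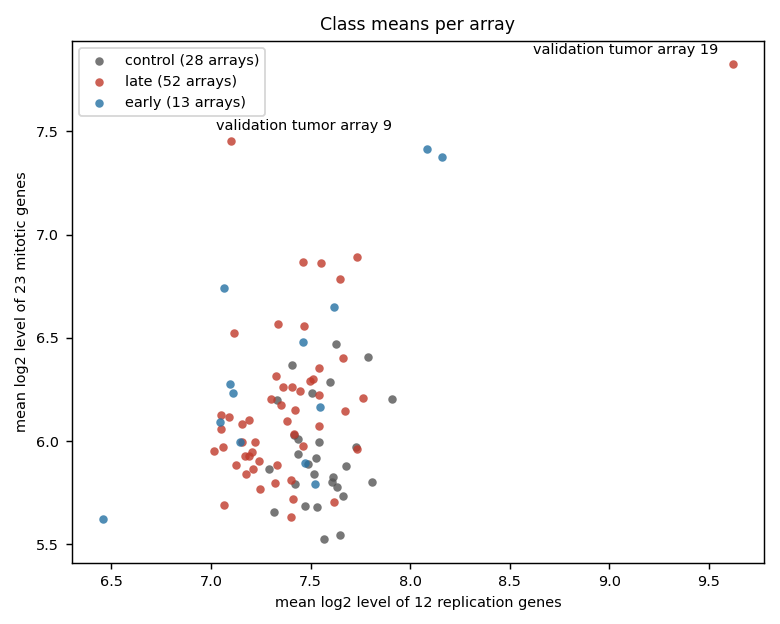
Mean log2 level of the 12 replication genes against the mean of the 23 mitotic genes on each array, coloured by set. Validation tumor array 19 (labelled) lies apart at 9.62 for replication, where the next highest late-numbered array lies at 7.76.

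Within the late-numbered arrays the median pairwise correlation between replication and mitotic genes was 0.35 over 52 arrays and 0.07 without validation tumor array 19. It was 0.06 over the 28 control arrays and 0.31 over the 13 early-numbered arrays. Of those 13, training tumor arrays 2 and 3 had the highest means of both classes (replication 8.16 and 8.09, mitosis 7.38 and 7.42). Validation tumor array 2 had the lowest means of both (6.46 and 5.62). The early correlation was not computed without these arrays. Validation tumor array 9 was the highest late-numbered array for 12 genes, 10 of them mitotic (Mki67 12.3, Ccnb2 9.58, Aurka 7.20, Tpx2 7.55) and 2 of the G1 to S class (E2f1 9.76, E2f2 12.9). It also held the highest erythroid mean of the late-numbered arrays (10.6), and it was the lowest for 5 genes, 4 of them replication genes. Without it, a choice made after seeing the data, the mitotic count on late-numbered arrays stayed at 9 higher and 2 lower.

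Some mitotic and G1 to S genes followed the erythroid marker genes from array to array. In all 3 sets, the mean of 8 erythroid genes (of 12 listed; Hemgn, Epb42, Tfrc, Slc4a1, Gata1, Hba-a1, Klf1 and Alas2) was correlated across arrays with Nusap1 (Pearson r from 0.946 to 0.980, Spearman rho from 0.950 to 0.970), Ube2c (0.948 to 0.956, rho from 0.823 to 0.954) and E2f2 (0.944 to 0.970, rho from 0.891 to 0.947). The correlations of Ccna2 (0.799 to 0.931, rho from 0.853 to 0.953), Mki67 (0.779 to 0.921, rho from 0.807 to 0.887), Birc5 (0.561 to 0.844, rho from 0.713 to 0.873) and E2f1 (0.548 to 0.959, rho from 0.429 to 0.857) were also called in every set. Permutation tests of 100000 resamples, adjusted over 234 relations, gave largest adjusted p of 0.0255 for Birc5 and 0.00173 for Ube2c among these 7 genes. Without the 2 arrays farthest from the median of the erythroid mean, r was 0.725 to 0.972 for Nusap1, Ube2c and E2f2, 0.783 to 0.932 for Ccna2 and Mki67, and 0.582 to 0.813 for Birc5 and E2f1. In these tests no replication gene was called positively correlated, and on late-numbered arrays 4 replication, 2 mitotic (Aurkb and Bub1b) and 1 G1 to S gene (Ccne2) were called negatively correlated, with 1 replication gene on controls.

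That difference between the classes on late-numbered arrays did not hold without validation tumor array 19, a choice made after seeing the data. Over the other 51 arrays, 5 of 12 replication genes were called positively and 2 negatively correlated with the erythroid mean, and 16 of 23 mitotic genes positively and 2 negatively, by permutation tests adjusted over 39 relations. The share of all genes correlated in this way was not counted, so whether these counts are particular to cell cycle genes is not known. Rrm2 had r of 0.685 (rho 0.630), Mcm2 0.658 (rho 0.668), Mcm7 0.423 (rho 0.452) and Rrm1 0.417 (rho 0.463), with permutation adjusted p for r of 3e-05, 3e-05, 0.00454 and 0.00454, and r of 0.568, 0.571, 0.512 and 0.533 without the 2 arrays farthest from the median. Nusap1 (0.947, rho 0.950), E2f2 (0.946, rho 0.944), Ube2c (0.942, rho 0.951), Ccna2 (0.942, rho 0.934) and Mki67 (0.913, rho 0.913) stayed high, each at a permutation adjusted p of 3e-05, the smallest these tests gave. Cdc6 stayed negative at -0.501 (rho -0.499, permutation adjusted p = 0.000366).

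**Figure D5:**
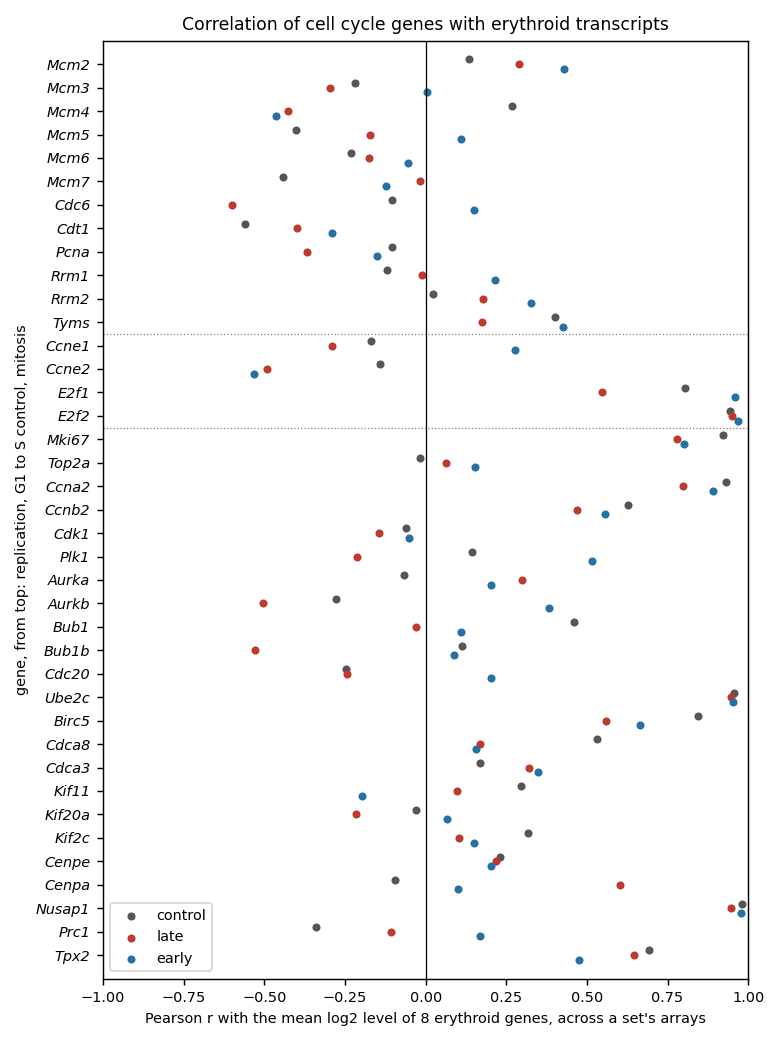
Pearson r of each of the 39 genes with the mean log2 level of 8 erythroid genes, across the arrays of each set. Each point is 1 gene in 1 set, coloured by set, with dotted lines between classes. For Nusap1 r runs from 0.946 to 0.980 over the sets, while other genes lie near or below 0.

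The erythroid genes themselves were called higher on early-numbered arrays for 5 of 8 (median difference 0.54), among them Hemgn (1.58), Epb42 (1.41), Tfrc (0.92) and Slc4a1 (0.63), and on late-numbered arrays for 1 of 8. The mean erythroid level ran from 7.27 to 9.56 on control, from 6.67 to 10.6 on late-numbered and from 7.28 to 9.88 on early-numbered arrays. Slc4a1 lay between 10.5 and 13.8 over the 3 sets, while Hba-a1, a globin, lay between 2 and 3.56 by its single-symbol probe set. With the erythroid mean as a covariate in limma, the early difference was 0.95 for Ccna2, 0.51 for Mki67, 0.55 for Birc5 and 0.33 for Nusap1, all called. It was 0.30 for E2f1 and -0.02 for E2f2, neither called, and the late difference of Mki67 stayed at 0.75 and of Ccnb2 at 0.94. The early difference of Mcm4 was 1.14 and of Mcm7 -1.41 in the same fit.

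Other markers moved with the sets as well. On late-numbered arrays 6 of 8 neutrophil and 6 of 7 neutrophil precursor genes were called higher, 6 of 7 B cell and 5 of 7 T cell genes lower, and 5 of 7 mammary epithelium genes higher by a median of 0.27. These counts were as large without validation tumor array 19. On early-numbered arrays 6 of 7 B cell and 6 of 7 T cell genes were called lower. The mean B cell level ran from 8.02 to 9.84 in controls, from 5.78 to 9.59 on late-numbered and from 6.51 to 9.02 on early-numbered arrays. With the B cell, T cell and neutrophil means as covariates in limma, 1 mitotic gene was called higher on early-numbered arrays, down from 10, and 7 on late-numbered arrays, down from 9. In each comparison 2 mitotic genes were called lower, as without the covariates. With the actin difference as a covariate the counts called higher were 5 and 9. These covariates differ between the sets themselves, so set and covariate cannot be fully told apart in these fits. The share of all genes called in them was not counted.

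The directions also depended on the control probe sets that separate the arrays. With their first 3 principal components as covariates in limma, 17 of the 39 genes were called higher and 0 lower on late-numbered arrays, and 3 higher and 15 lower on early-numbered arrays. The share of all genes called in that fit was not counted, so whether the shift is particular to the 39 genes is not known. In that fit the late differences of Mcm3 (0.12), Mcm4 (0.25), Prc1 (1.04) and Rrm2 (0.87) changed sign, as did the early differences of Ccna2 (-0.11), Mki67 (-0.24), Ccnb2 (-0.55) and Nusap1 (-0.33) among others. None of these 8 sign-changed values was called, and the standard error of the late Mcm4 difference rose from 0.07 to 0.26. The early differences of Mcm4 (1.09) and Mcm7 (-1.59) and the late differences of Ccnb2 (3.02) and Mki67 (1.98) kept their direction and were called. Because these control levels differ between the sets, set and control levels cannot be told apart in that fit.

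Genes of the same pathways outside the list were read as well. Of 49 further replication genes, 5 were higher and 19 lower on late-numbered arrays (median -0.19), and 5 higher and 26 lower on early-numbered arrays (median -0.36). Of all genes 20.5% and 29% were called lower in these comparisons, as given above, and without validation tumor array 19 the late count was 5 higher and 22 lower. Cdc7, the kinase that fires origins, fell by 1.21 and 0.83, and Pola1, the primase-associated polymerase, by 1.04 and 1.00 on late-numbered and early-numbered arrays. Pold2, a subunit of the lagging strand polymerase, fell by 1.95 on early-numbered arrays, and was -0.12 on late-numbered arrays, where it was not called. Uhrf1, which guides maintenance methylation, rose by 0.91 on early-numbered arrays, and Mcm10, a replication initiator, by 0.36 on late-numbered arrays.

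Of 70 further mitotic genes, 21 were higher and 8 lower on late-numbered arrays (median 0.11), and 26 higher and 7 lower on early-numbered arrays (median 0.21). The shares called higher lay near the 25.6% and 34.3% of all genes, while the shares called lower lay under the 20.5% and 29% of all genes. Without validation tumor array 19 the late count was 20 higher and 12 lower. Cks2, a partner of the cyclin-dependent kinases, rose by 1.13 on late-numbered arrays, Kif23, a midzone kinesin, by 1.01 and Cdkn3, a phosphatase of the same kinases, by 0.99. Cenpk, of the inner kinetochore, rose by 2.02 and Ect2, which starts cytokinesis, by 1.51 on early-numbered arrays. Cep55, which acts in abscission, was called lower on late-numbered arrays at -0.67.

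Of 47 genes that control the cycle, 10 were higher and 18 lower on late-numbered arrays (median -0.07), and 6 higher and 24 lower on early-numbered arrays (median -0.30). Of all genes 25.6% were called higher and 20.5% lower on late-numbered and 34.3% and 29% on early-numbered arrays, and without validation tumor array 19 the late count was 10 higher and 20 lower. Ccnd3, a G1 cyclin, rose by 0.66 and Fzr1, an activator of the anaphase-promoting complex, by 0.75 on late-numbered arrays, where Lin9, of the complex that acts on mitotic promoters, fell by 1.41. Btg2, an antiproliferative gene, fell by 1.37 on early-numbered arrays and rose by 0.38 on late-numbered arrays.

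Myc, the gene the transgene carries, ran from 6.59 to 9.06 with a median of 7.86 in controls, from 7.25 to 12.0 with a median of 8.76 on late-numbered arrays and from 4.46 to 7.76 with a median of 6.47 on early-numbered arrays. It rose by 0.84 on late-numbered arrays (limma adjusted p = 3.49e-05; 0.77 without validation tumor array 19) and fell by 1.31 on early-numbered arrays (limma adjusted p = 5.92e-06). Which transcript its probe set reads, mouse gene or transgene, was not tested here. By quantitative RT-PCR the paper reported little or no c-MYC transcript in the blood cells of the transgenics, relative to their mammary tumors. From arrays under another normalisation (MAS5), it reported no significant difference between mouse groups for Myc probe sets, this one included. There the tumor-bearing mice were taken as a single group.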

How the data were processed

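White blood cell RNA was read on 93 Affymetrix mouse oligonucleotide arrays. The deposited log2 values were made by the authors with RMA; no source used here gives the RMA version. In the study's methods the mouse data were standardised with components of the Affymetrix control probes, and whether that is part of the deposited values is not said. Of 45101 probe sets, 64 control probe sets were left out and 45037 tested. Gene names came from the platform annotation: 34945 probe sets have a single symbol, 932 several and 9160 none. Each comparison was fitted with limma 3.58.1 in R 4.3.3 (lmFit, eBayes with intensity trend) on all 45037 probe sets with control, late-numbered and early-numbered sets and the cohort (training or validation) as terms, with Benjamini-Hochberg adjustment and a threshold of 0.05. The fit was tested on simulated data. Array number limits precision; no depth exists for arrays. The labels name no animals, so p-values measure only the spread between arrays. All 39 genes are named, and of the wider pathway lists the 3 largest rises and 3 largest falls among called genes of each comparison could be named. The members and lists were chosen with earlier results of these data known. Alternatives changed the moderation, array weights, dim probe sets, cohorts, arrays left out, covariates, replicate block, probe set summary and shared controls.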

Additional observations from a re-analysis of the deposited data

Results flagged for a closer look

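Of the 39 genes, 4 were called in opposite directions against control in late-numbered and early-numbered tumor arrays, and limma's direct contrast of late minus early was called for each. It was 0.71 for Cdc20, -1.72 for Mcm4, -1.19 for Prc1 and -1.57 for Rrm2. The spike-in and actin control levels also differ between these sets. With components of the control probe sets as covariates, the late differences of Mcm4, Prc1 and Rrm2 changed sign and were not called. Late minus early changed sign there for Prc1 and Rrm2 and kept it for Mcm4 and Cdc20. With the actin difference as a covariate, no difference of these genes changed sign. Set and control levels cannot be told apart in the fit with components, so the part of the control levels could not be tested.

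For early-numbered arrays against control, the validation cohort minus the training cohort was -1.68 for Prc1, -1.48 for Rrm2 and -1.49 for Aurkb by limma's interaction term. Training tumor arrays 2 and 3 held the highest Prc1 levels of the early-numbered arrays, at 9.08 and 8.88.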

How the results depend on the processing

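Of 783 single-gene values recomputed under the alternatives, 617 kept their direction and their side of the threshold, 137 kept the direction only and 29 reversed. For the counts over the 39 genes, late-numbered arrays gave 11 higher; this became 6 with dim probe sets left out, 6 in training alone, 17 with 3 components of the control probe sets, 4 with the label number as a replicate block and 7 with controls not shared. The 5 lower became 8 with array weights, 3 in validation alone, 0 by limma with 3 components (also 0 at an unadjusted p under 0.05) and 3 with the mean of all probe sets. For early-numbered arrays the 14 higher became 3 in validation alone, 3 with 3 components, 9 with the actin difference, 4 with leukocyte means and 8 without training tumor arrays 2 and 3. The 8 lower became 3 in training, 15 with 3 components, 5 with actin, 3 with leukocyte means and 4 with controls not shared. Late minus early, the 9 higher became 4 in training, 22 with 3 components, 5 with actin and 14 without training tumor arrays 2 and 3, and the 11 lower became 20 in training, 5 in validation, 1 with 3 components, 7 with actin and 7 with leukocyte means. These are the counts that moved by over 1.5 times, and leaving out validation tumor array 19 moved none of them so far. Apart from the fit without that array, the share of all genes called was not counted under the alternatives.

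With 3 components, early differences reversed for Birc5 (-0.29), Ccna2 (-0.11), Ccnb2 (-0.55), Cenpe (-0.10), E2f1 (-0.49), E2f2 (-0.44), Mki67 (-0.24) and Nusap1 (-0.33). Late differences reversed for Mcm3 (0.12), Mcm4 (0.25), Prc1 (1.04) and Rrm2 (0.87). Late minus early reversed for Birc5 (1.41), Ccna2 (1.88), E2f1 (1.48), Mcm3 (0.69), Nusap1 (0.21), Prc1 (0.60), Rrm2 (0.67) and Top2a (2.07). With leukocyte means, early differences reversed for Ccnb2 (-0.20), E2f1 (-0.38) and Mcm6 (0.20), and late minus early for E2f1 (0.38). With the erythroid mean the early difference of E2f2 was -0.019. In training alone Aurkb was 0.29 early and -0.14 late minus early, and Tpx2 was -0.20 late minus early and -0.27 with the mean of all probe sets. The cause was not tested.

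The number in the label was shared by groups, and no source says whether it pairs arrays. The 102 pairs of arrays with the same number correlated from -0.46 to 0.56 (median 0.06), 44 of them over 0.1. Between training and validation tumor arrays the median was 0.14, with 20 of 32 over 0.1, and between other groups medians ran from -0.04 to 0.06. These are deviations from group means, so shared early or late numbering enters the tumor values, and pairing cannot be judged from them. With the number as a replicate block, the counts were 4 higher for late and 13 higher for early numbers, and 6 higher and 9 lower for late minus early.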
